A study of Homo sapiens with 4 samples.

Results

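The genes described here encode the subunits of 2 ring-shaped protein complexes that fold and hold chromosomes, condensin I (SMC2, SMC4, NCAPD2, NCAPG and NCAPH) and cohesin (SMC1A, SMC3, RAD21, STAG1 and STAG2). They were taken as the 10 genes of these names among the 57773 genes of the authors' deposited table, and each name matched 1 gene. RNA had been sequenced from KMS12PE and KMS11, established human lines of multiple myeloma, a cancer of antibody-secreting plasma cells. Each line was treated with OSSL_325096 at 1 µM, a compound for which the labels give this code alone, or with the solvent DMSO. Of the 4 libraries 2 belong to each treatment, one from either line, so a single line has no replicate. For how long the cells were treated is not stated in the labels.

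What the authors deposited is their comparison of OSSL_325096 with DMSO over both lines. For each gene it lists the log2 fold change with its p-value, and a level in RPKM, a read count scaled to transcript length and library size, for whichever treatment group had the higher mean. A positive log2 fold change is read as higher with OSSL_325096, because the table's name puts the compound before DMSO; no column says so. The libraries' separate values were not analysed here, so the 2 lines cannot be told apart and the depth behind a value is unknown. The genes compared are the 11324 listed at 1 RPKM or more, which include all 10 members. All 7 plasma cell markers examined were above this level, from 11.4 RPKM (CD38) to 180 RPKM (XBP1) in the authors' deposited table. The 7 markers of mature B cells, T cells and myeloid cells lay between 0 and 0.956 RPKM there, with MS4A1 and CD3D at 0. No gene of the table passed a correction for multiple tests (0 of 11324 genes, 0%, at a Benjamini-Hochberg adjusted p of 0.05 from the authors' deposited p-values), and 5 genes (0.0442%) had an unadjusted p under 0.05.

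Both complexes are built on a pair of SMC proteins, long coiled-coil ATPases that meet at a hinge. A kleisin subunit closes the ring, and HEAT repeat proteins bind the kleisin and contact DNA. Cohesin holds sister chromatids together from replication until anaphase and extrudes the chromatin loops of interphase, in which it is halted by CTCF. Condensin I reaches the chromosomes once the nuclear envelope has broken down, and compacts them for mitosis.

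As deposited, the cohesin genes all had log2 fold changes below 0 (STAG1 turned to 0.06 after removal of a trend with GC content, length and level, described further on), while those of condensin I lay on either side of it. Of the 5 cohesin genes 5 were below 0, with a median log2 fold change of -0.22 and a range from -0.58 to -0.06, where 49% of all genes tested were below 0. Of the 5 condensin I genes 3 were above 0 and 2 below, with a median of 0.05 and a range from -0.27 to 0.32, where 51% of all genes tested were above 0. The median of all genes tested was 0.01. None of these differences was larger than its error. At a threshold of 1.5-fold, 0 of the 10 members were higher and 0 lower, against 4.95% of all genes tested in each direction. Genes of at least 5 RPKM, as all 10 members are, leaned upward as a whole, with 57.3% above and 42.7% below 0 and a median of 0.06. In bulk RNA, fewer cells of a type and less RNA per cell cannot be told apart.

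The error of each fold change was taken as an implied standard error (SE), which is the size of the log2 value over the normal quantile that belongs to its deposited p-value. This holds exactly for a two-sided normal test, and which test the authors used is not stated. It ran from 0.83 (STAG2) to 1.02 (NCAPH) among the 10 members, with a median of 1.10 over all genes tested. Their deposited p-values ran from 0.484 (STAG2) to 0.958 (NCAPH). The adjusted p over the 11324 genes, by the Benjamini-Hochberg method, was 0.999909 for each member. Every 95% interval held a ratio of 1. For STAG2 the interval of the ratio of OSSL_325096 to DMSO ran from 0.216 to 2.07, and for NCAPH, the least precise, from 0.261 to 4.12. A member with the precision of STAG2 would have had to differ by 3.09-fold for an unadjusted p of 0.05, and one with the precision of NCAPH by 3.97-fold, so smaller differences were not detectable by these p-values. Each line received both treatments, and whether the authors' model paired the libraries by line is not stated in the labels. The genes that tell the lines apart, CCND1, FGFR3 and MAF, had implied SEs of 1.83, 2.002 and 1.94, above the median of 1.10. Whether the errors of the members include the difference between the lines was not tested. The fold changes of the members had a standard deviation of 0.28, against 0.40 over all genes tested. Over genes of at least 5 RPKM, as all 10 members are, it was 0.34. The 0.40 is below the median implied SE of 1.10. Of all genes tested, 0.0442% had an unadjusted p under 0.05, a smaller share than would pass if no gene differed. A value smaller than its implied SE therefore does not set the members apart from other genes.

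**Figure D1:**
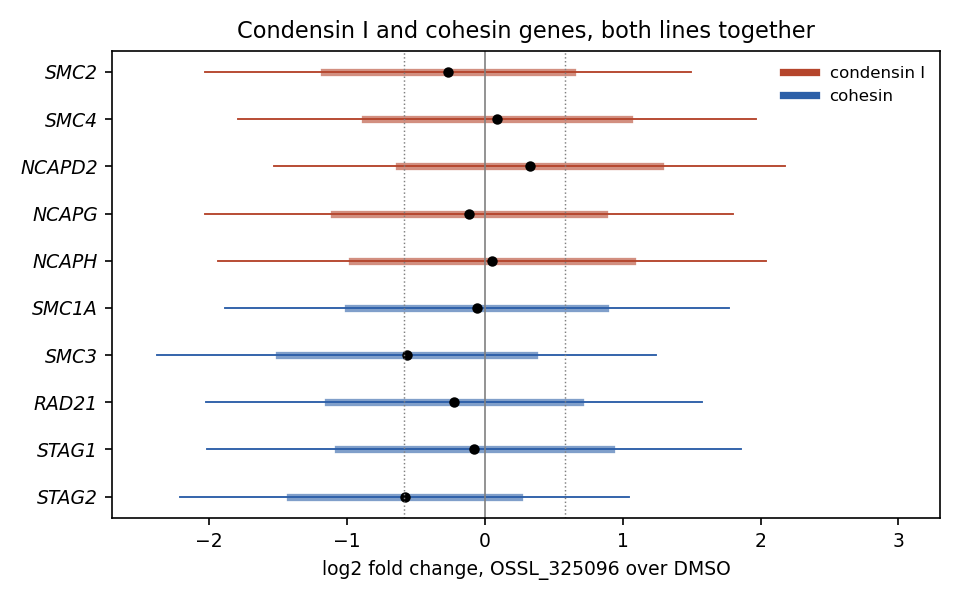
Horizontal axis, log2 fold change of OSSL_325096 over DMSO for the 10 genes. Points are the authors' deposited values over both lines, thick bars 1 implied standard error, thin bars the 95% interval and dotted lines 1.5-fold. All 10 intervals cross 0, and the cohesin genes (blue) lie at or below -0.06 as deposited, with STAG1 at 0.06 after the trend with GC content, length and level was removed.

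Among the ATPase genes, SMC3 stood lowest. SMC3 (ENSG00000108055; chromosome 10, 112327449 to 112364394, hg19, plus strand, 29 exons) had, in the authors' deposited table, a level 1.48-fold lower with OSSL_325096 (log2 -0.57, implied SE 0.92, p = 0.539). Its partner in the ring, SMC1A (ENSG00000072501; chromosome X, 53401070 to 53449677, minus strand, 25 exons), had -0.06 there (implied SE 0.93). Hence the 2 ATPase genes of cohesin, whose proteins stand at equal numbers in the ring, were listed 0.51 apart on the log2 scale. That gap is smaller than either implied SE, and it could not be tested without the single libraries. The ATPase genes of condensin I were SMC2 (ENSG00000136824; chromosome 9, 106856541 to 106903698, plus strand, 25 exons) and SMC4 (ENSG00000113810; chromosome 3, 160117062 to 160152750, plus strand, 24 exons). In the authors' deposited table SMC2 had -0.27 (implied SE 0.90) and SMC4 0.09 (implied SE 0.96), also on either side of 0.

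Of the kleisin genes, NCAPH was close to 0 and RAD21 stood lower. RAD21 encodes the cohesin kleisin, which separase cuts to release sister chromatids. RAD21 (ENSG00000164754; chromosome 8, 117858174 to 117887105, minus strand, 14 exons) had -0.22 on the log2 scale (implied SE 0.92, p = 0.807) in the authors' deposited table. NCAPH, the condensin I kleisin (ENSG00000121152; chromosome 2, 97001525 to 97039583, plus strand, 18 exons), had 0.05 there (implied SE 1.02).

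The HEAT repeat genes held the highest and the lowest value of the 10. NCAPD2 (ENSG00000010292; chromosome 12, 6602522 to 6641121, plus strand, 32 exons) was listed as 1.25-fold higher with OSSL_325096 by the authors' deposited table (log2 0.32, implied SE 0.95, p = 0.731). NCAPG, the other such subunit of condensin I (ENSG00000109805; chromosome 4, 17812525 to 17846485, plus strand, 21 exons), had -0.11 there (implied SE 0.98). STAG1 and STAG2 are alternative subunits, and a cohesin ring carries one or the other. STAG2 (ENSG00000101972; chromosome X, 123094062 to 123556514, plus strand, 35 exons) was listed as 1.496-fold lower by the authors' deposited table (log2 -0.58, implied SE 0.83, p = 0.484). STAG1 (ENSG00000118007; chromosome 3, 136055077 to 136471220, minus strand, 34 exons) had -0.08 there (implied SE 0.99). STAG2 and SMC3 stood at the 5.02th and 5.29th percentile of all 11324 fold changes, and NCAPD2 at the 83.8th. At a threshold of 1.2-fold, NCAPD2 was the 1 member higher, against 21.2% of all genes tested, and SMC2, SMC3 and STAG2 were the 3 lower, against 19.9%. The remaining 6 members were within 1.2-fold. Those 3 genes thus belong to both complexes, and 2 of them are cohesin genes.

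RPKM values are per transcript length, so levels can be set side by side between subunits. Each is a mean over the treatment group that was higher. By the sign of the fold change this is the DMSO group for the 5 cohesin genes, SMC2 and NCAPG, and the OSSL_325096 group for NCAPD2, SMC4 and NCAPH. RAD21 was the highest member at 58.2 RPKM, followed by NCAPD2 at 42.8, SMC4 at 34.5, SMC3 at 24.8 and SMC1A at 21.2 RPKM in the authors' deposited table. Below them the authors' deposited table listed STAG2 at 16.7 RPKM, NCAPH at 16.2, SMC2 at 13.7, NCAPG at 11.6 and STAG1 at 6.44 RPKM. STAG1 alone was under the median of all genes tested, 6.76 RPKM, and RAD21 was at the 93.6th percentile of level. Which neighbours in this order differ beyond the spread between libraries could not be judged from group means.

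Within cohesin all 5 levels are of the DMSO group and can be compared within 1 group. Exon bases that STAG1 and RAD21 share with genes on the opposite strand, described below, were not accounted for. SMC3 and SMC1A were listed at near-equal levels, with a ratio of 1.17. The kleisin transcript RAD21 was 2.34 times that of SMC3 and 2.74 times that of SMC1A. STAG2 was listed at 2.60 times the level of STAG1, or 72.2% of the sum of the pair. That sum was 23.2 RPKM, 1.09 times the level of SMC1A. Within condensin I, NCAPD2, SMC4 and NCAPH are levels of the OSSL_325096 group, and NCAPD2 was 1.24 times SMC4 and 2.65 times NCAPH. SMC2 and NCAPG, both levels of the DMSO group, had a ratio of 1.18. Levels of the members spanned 9.03-fold in all, from STAG1 to RAD21. Within condensin I they spanned 3.68-fold, from NCAPG in the DMSO group to NCAPD2 in the OSSL_325096 group, which is not a ratio within 1 group.

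**Figure D2:**
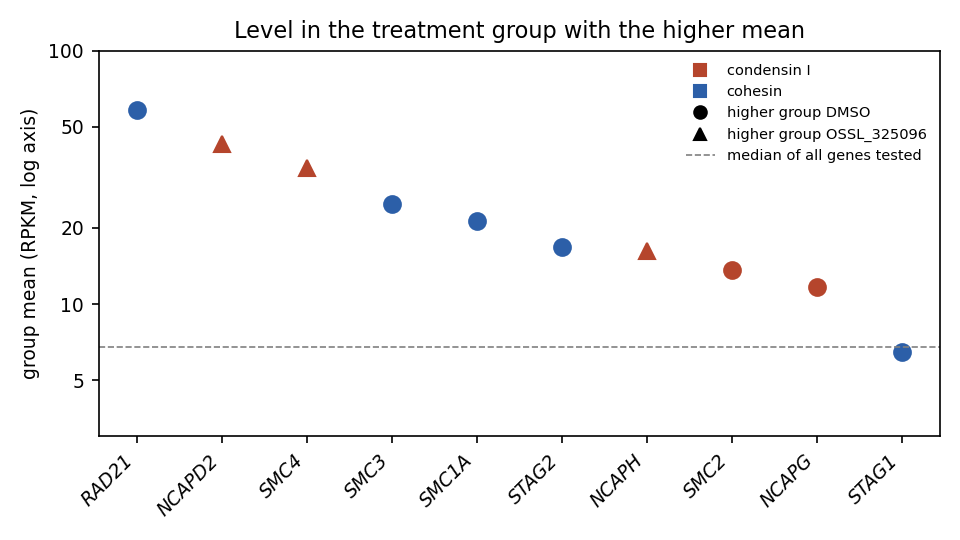
Group mean in RPKM on a log axis for each gene, in falling order, as deposited for the treatment group with the higher mean (circles DMSO, triangles OSSL_325096, by the sign of the fold change). Cohesin genes (blue) run from RAD21 at 58.2 to STAG1 at 6.44 RPKM, the one member below the median of all genes tested (dashed line, 6.76 RPKM).

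Several members share bases with a gene on the opposite strand, and whether the counting used strand is not stated in the labels, so reads from these stretches cannot be told apart. NCAPD2 shares 383 exon bases with MRPL51, a mitochondrial ribosomal protein gene at 86.6 RPKM and log2 0.29 in the authors' deposited table, close to the 0.32 of NCAPD2. STAG1 shares 1661 exon bases with PCCB, which had 12.2 RPKM and -0.27 in the authors' deposited table. For RAD21 the partner is UTP23, with 576 shared exon bases, 5.61 RPKM and 0.18 there. SMC4 shares 1553 exon bases with TRIM59 (2.50 RPKM) and 243 with IFT80 (3.14 RPKM), and NCAPG shares 1634 with LCORL (1.07 RPKM). Their part in the values of the members was not tested.

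Fold changes across the table were correlated with the GC content of the transcripts (Spearman correlation 0.47 across 11104 genes, which are not independent replicates), and most members are poor in GC. In 7 of the 10, all except NCAPD2, NCAPH and SMC1A, the GC content fell in the lowest of 5 equal groups of genes ordered by it, whose median log2 fold change was -0.17. GC content ran from 37.2% (SMC4) to 40.7% (STAG1) in these 7, and was 48.8% in NCAPH, 51.2% in SMC1A and 52.6% in NCAPD2, against a median of 50.2% over all genes tested. With the trend in GC content, transcript length and level removed, STAG2 stood at -0.45, SMC3 at -0.43, SMC1A and SMC2 at -0.13 and RAD21 at -0.11. STAG1 turned to 0.06 and NCAPG to 0.06, so that 4 of the 5 cohesin genes and 1 of the 5 condensin I genes were below 0. SMC4 moved from 0.09 to 0.26 and NCAPD2 from 0.32 to 0.24. The median of cohesin became -0.13 and that of condensin I 0.06. These remaining values are smaller than the implied SEs, and the part of GC content in the fold changes of the members was not tested.

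**Figure D3:**
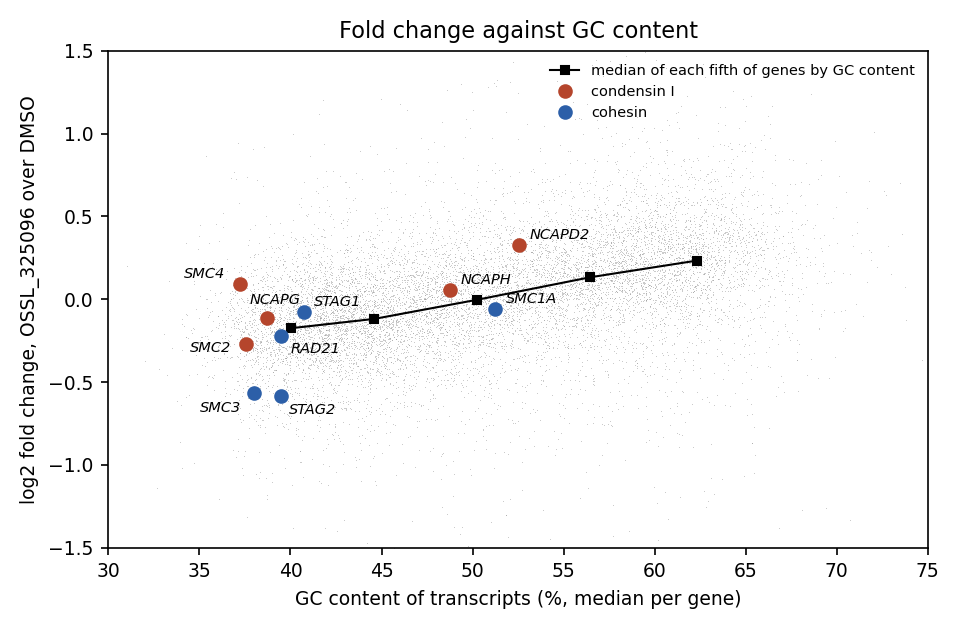
Log2 fold change of OSSL_325096 over DMSO (vertical axis) against the GC content of a gene's transcripts in percent (horizontal axis). Grey points are all genes tested, of which a few lie outside the axes, black squares the medians of 5 equal groups of genes by GC content, and coloured points the members. STAG2 and SMC3, at -0.58 and -0.57, lie below the median of -0.17 of the group that holds them.

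The other complexes built on SMC proteins were examined next, from gene lists written from textbook knowledge. Condensin II shares SMC2 and SMC4 with condensin I and has 3 subunits of its own, and 3 of 3 were below 0 (49% of all genes tested). NCAPD3 had -0.11, NCAPG2 -0.09 and NCAPH2 -0.18 in the authors' deposited table. Their levels in the authors' deposited table were 10.7, 16.6 and 19.997 RPKM, all of the DMSO group by the sign of the fold change. Of the condensin I counterparts only NCAPG is a level of the same group, and its 11.6 RPKM was below the 16.6 RPKM of NCAPG2. Of the 6 genes of the SMC5/6 complex, which acts in DNA repair, 4 were below 0 (49% of all genes tested), with a median of -0.10. After removal of the trend with GC content, length and level, the direction turned, with 2 below 0, 4 above and a median of 0.06. SMC6 was lowest, with -0.62 in the authors' deposited table (1.53-fold lower, implied SE 0.97). It is the 1 gene of this list past 1.5-fold as deposited, against 4.95% of all genes tested in each direction. With the trend removed SMC6 was at -0.45, and 0 genes of the list were past 1.5-fold. Of the 11104 genes with this value, 381 were higher and 440 lower by that much. SMC5, the gene of the ATPase partner of SMC6, had -0.15 in the authors' deposited table. The ubiquitin ligase gene NSMCE1 had 0.18 there, the SUMO ligase gene NSMCE2 -0.17 and NSMCE4A 0.15.

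Genes that load cohesin on DNA, release it or acetylate it showed no common direction. Of 9 measured genes 4 were above 0 and 5 below (51% and 49% of all genes tested), with a median of -0.10. By 1.5-fold or more, 0 of them differed, against 4.95% of all genes tested in each direction. The acetyltransferase genes ESCO2 and ESCO1, whose products lock cohesin on DNA, had -0.57 and -0.44 in the authors' deposited table. Both had low levels, 1.88 and 2.20 RPKM there. The loader gene NIPBL had -0.33 (implied SE 0.93), and the regulators PDS5B and PDS5A had -0.30 and 0.25 in the authors' deposited table.

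Genes that protect or cleave the link between sister chromatids lay on the other side of 0. All 7 measured genes were above 0 (51% of all genes tested), 2 of them 1.5-fold or more (4.95%), and the median was 0.35. With a minimum of 5 RPKM 6 were left, all above 0, as were 57.3% of all genes at that minimum. Of these 6, 1 was 1.5-fold or more higher, against 303 of 6711 genes. SGO2, listed as SGOL2, encodes a shugoshin that shields centromeric cohesin, and had 0.94 in the authors' deposited table (implied SE 1.23, p = 0.446). Its level was low, 3.56 RPKM there. SGO1, listed as SGOL1, had 0.35 there. PTTG1, the gene of securin, had 0.64 in the authors' deposited table (implied SE 1.06), and ESPL1, the gene of separase, which securin holds inactive, had 0.45 (implied SE 1.05). CDCA5, the gene of sororin, which keeps cohesin on replicated DNA, had 0.29 in the authors' deposited table, with a level of 54.5 RPKM in the OSSL_325096 group. Each of these values was smaller than its implied SE.

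A list named chromosome axis partners of condensin and a list of kinases that act on either complex were examined last. Not all products of the first list, such as those of MKI67 and MCPH1, are proteins of the axis itself. Of the 5 genes of that list 4 were above 0 (51% of all genes tested, and 57.3% of those of at least 5 RPKM), with a median of 0.16. The chromokinesin gene KIF4A had 0.49, MKI67, the gene of the Ki-67 antigen, 0.31, the topoisomerase genes TOP2A and TOP2B 0.16 and -0.26, and MCPH1, whose product restrains condensin II, 0.06 in the authors' deposited table. Of 5 kinase genes 3 were above 0, a share near these backgrounds, with a median of 0.36. The authors' deposited table listed PLK1 at 0.97 (implied SE 0.91, p = 0.288), BUB1 at 0.56 and AURKB at 0.36. CDK1, like these 3 a kinase of mitosis, was listed at -0.11 there, and the casein kinase gene CSNK2A1 at -0.12. PLK1 had the smallest p-value of the 35 measured partner genes and was the 1 gene among them whose deposited value was larger than its implied SE. After removal of the trend with GC content, length and level, PLK1 was at 0.80, smaller than that SE. CDK1 turned to 0.07, so that 4 of the 5 kinase genes were above 0, as were 5579 of the 11104 genes with this value. The median of the list of axis partners then became 0.31 and that of the kinase genes 0.21. The 4 meiotic cohesin genes were under 1 RPKM and outside the genes tested. SMC1B, STAG3 and REC8 had 0.392, 0.387 and 0.923 RPKM in the authors' deposited table, and RAD21L1 was listed at 0.

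**Figure D4:**
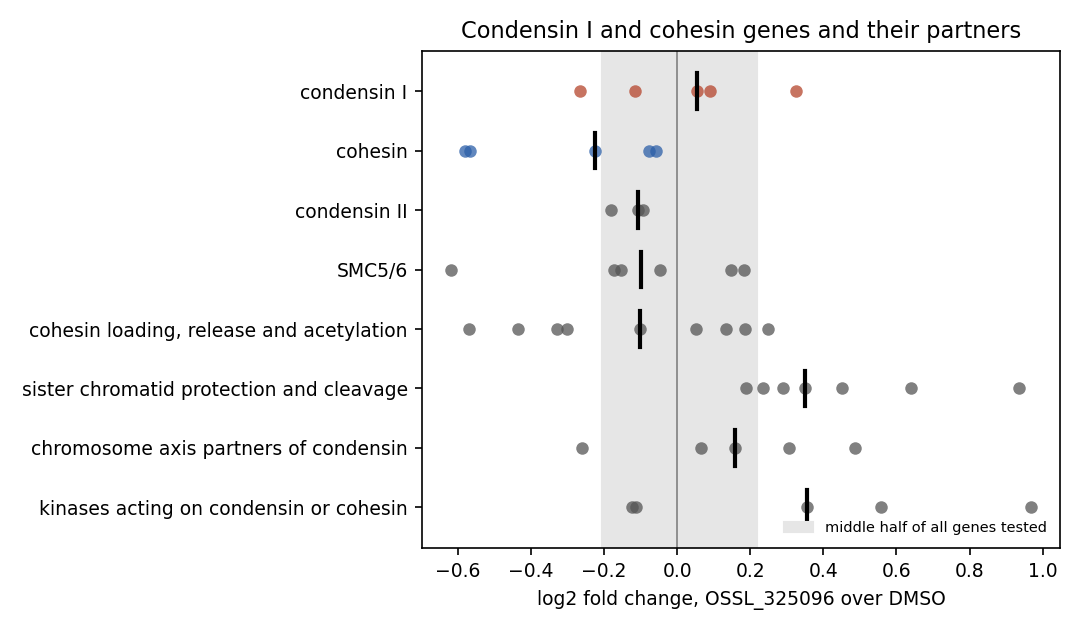
Horizontal axis, log2 fold change of OSSL_325096 over DMSO for each measured gene of condensin I, cohesin and 6 partner lists. Points are genes, black bars list medians, and the grey band the middle 50% of all genes tested. Genes of sister chromatid protection and cleavage lie between 0.19 and 0.94, and those of cohesin between -0.58 and -0.06 as deposited, with STAG1 at 0.06 after the trend with GC content, length and level was removed.

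Promoter sequences were compared as a feature that the choice of genes did not use. RefSeq start sites on GRCh38.p14 gave 14 windows for 9 of the 10 members, each with 250 bases before and 50 after the start site. RAD21 is not among them. Both strands were searched for 3 kinds of motif. The first was the cell cycle homology region or CHR (TTTGAA or TTCGAA), at which the repressor complex DREAM and the activators of mitotic genes are known to bind. The second was the CCAAT box (CCAAT), bound by NF-Y, and the third E2F sites (TTTCCCGC, TTTGGCGC, TTTCGCGC or TTTGCCGC). A CHR match was present for 4 of 5 condensin I genes and 1 of 4 cohesin genes, and in 16.4% of the 35116 windows of all genes. An E2F match was present for 0 of 5 condensin I genes and 3 of 4 cohesin genes, and in 3.31% of all windows. CCAAT was found for 2 of 5 and 2 of 4 genes, and in 34.6% of all windows. These shares of all genes are per window, and a gene with several windows has more chances of a match. By window the CHR was in 4 of 7 for condensin I and 1 of 7 for cohesin, E2F in 0 of 7 and 3 of 7, and CCAAT in 2 of 7 and 3 of 7. The difference between the complexes was not tested. A match is a description of letters and not a site shown to be bound.

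The CHR and E2F matches are shown on the strand of the gene, 5′ to 3′, with the motif in capitals. They are printed to show the letters beside which the fold changes can be read. The CHR is written TTCAAA where it lies on the opposite strand. The condensin I stretches are SMC4 (chr3:160399550-160399605, match 75 bases before the start site), NCAPG (chr4:17810919-17810974, 35 before), SMC2 (chr9:104094281-104094311, beginning 3 before) and NCAPD2 (chr12:6493932-6493987, 145 before). The cohesin stretches are SMC3 (chr10:110567519-110567574, a CHR 151 before), STAG1 (chr3:136752529-136752586, minus strand, E2F, 183 before), SMC1A (chrX:53422655-53422699, minus strand, E2F, 20 before) and STAG2 (chrX:123961982-123962039, E2F, 51 before).
SMC4: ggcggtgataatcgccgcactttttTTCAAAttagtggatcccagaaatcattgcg
NCAPG: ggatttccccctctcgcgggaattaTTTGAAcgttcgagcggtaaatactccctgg
SMC2: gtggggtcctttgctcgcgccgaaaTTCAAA
NCAPD2: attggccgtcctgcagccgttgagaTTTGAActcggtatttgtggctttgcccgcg
SMC3: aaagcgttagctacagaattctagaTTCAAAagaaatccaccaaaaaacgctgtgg
STAG1: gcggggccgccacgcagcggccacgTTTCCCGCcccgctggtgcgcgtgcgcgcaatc
SMC1A: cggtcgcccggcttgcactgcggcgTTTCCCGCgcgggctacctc
STAG2: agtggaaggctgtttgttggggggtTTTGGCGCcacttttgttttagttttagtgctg

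The genes with a CHR match had no common direction. Their log2 fold changes in the authors' deposited table were 0.32 (NCAPD2), 0.09 (SMC4), -0.11 (NCAPG), -0.27 (SMC2) and -0.57 (SMC3), and that of NCAPH, which has no such match in this window, was 0.05. The 3 genes with an E2F match were all below 0, at -0.06 (SMC1A), -0.08 (STAG1) and -0.58 (STAG2). SMC3, SMC2 and NCAPG, without such a match in their windows, were below 0 too. Of all genes tested, 49% were below 0. After the trend was removed, STAG1 and NCAPG were at 0.06. CCAAT matches lay in members at both ends of the range, 4 in the window of NCAPD2 (0.32), 3 over the windows of STAG2 (-0.58), 2 in that of STAG1 (-0.08) and 1 in that of NCAPH (0.05).

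**Figure D5:**
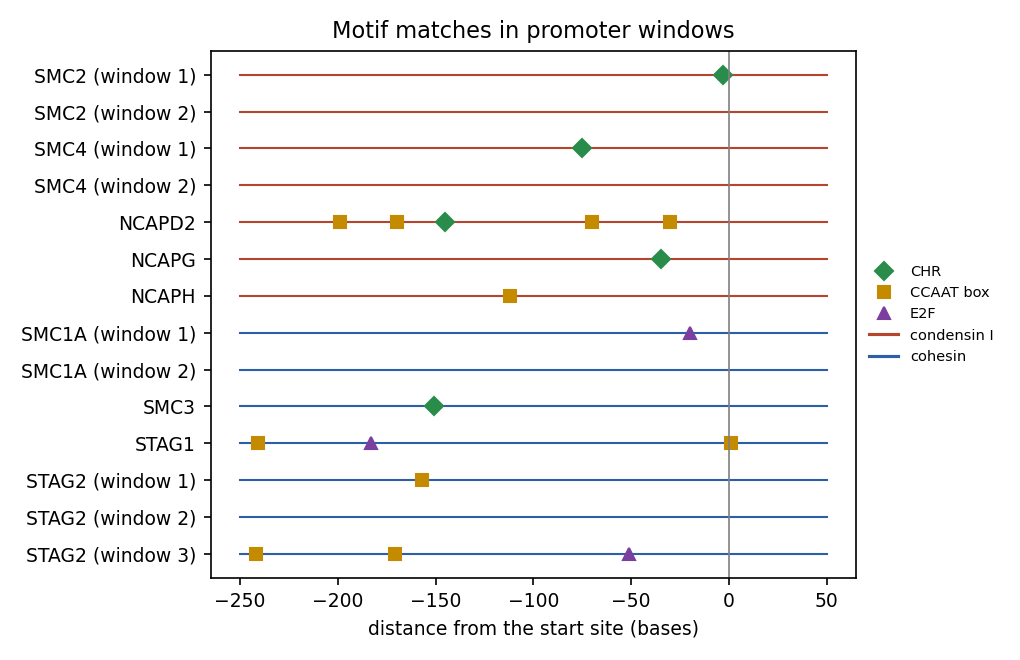
Position of motif matches in bases from the start site (horizontal axis) in the 14 promoter windows of 9 members, with lines coloured by complex. CHR matches (diamonds) lie in 4 condensin I genes and in SMC3, and E2F matches (triangles) in STAG1, SMC1A and STAG2.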

How the data were processed

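Libraries were made from mRNA bound to oligo(dT) beads, per the labels' protocols. The authors mapped the reads to hg19, and made the RPKM values and the comparison of the treatments in Biomedical Genomics Workbench 5, per the series' design text. How reads were counted, the use of strand, the annotation and the statistical model were not given in the sources used here. There are 6 deposited columns of values, 0 of them for a single library. RPKM, as deposited, is a mean over whichever treatment group was higher. Log2 fold changes and a signed fold score of the same ratio, which differ by at most 5.47e-06 on the log2 scale, were deposited for 23130 genes, with p-value columns that are unadjusted, false discovery rate (0.999995 for every gene) and Bonferroni.

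Genes of at least 1 RPKM were kept, their p-values were adjusted by Benjamini-Hochberg, and implied SEs were computed (scipy 1.17.1, numpy 2.4.6, pandas 2.3.3, Python 3.11.15). The trend was removed by regression on GC content, length and level with powers up to 3. GC content and length were medians of each gene's transcripts from GENCODE 44 on GRCh37, found for 98.1% of the genes kept. This step was tested on simulated data. Exons were counted in the canonical transcript. A limma fit had been planned for the case that single libraries were given, and was not possible. A planned comparison of protein sequences was not made.

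The members and the 7 partner lists (39 genes, 4 of them listed under older symbols) were chosen with earlier results of these data known. Named are all members and up to 5 genes of each partner list with the largest absolute fold changes. Lists are described by counts and medians, with no set test. The labels do not tell how many cultures there were, and the authors' model is not stated, so which spread the p-values measure is not known. They cannot be read as measuring the spread between independent cultures.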

Additional observations from a re-analysis of the deposited data

How the results depend on the processing

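With the median of all genes subtracted, no member changed sign. At this setting 1 cohesin gene, STAG2, came to be at least 1.5-fold lower, against 0 as deposited, as were 574 of the 11324 genes tested. At a threshold of 1.2-fold, 1 condensin I gene was higher, 1 was lower, and 2 cohesin genes were lower. Of all genes tested 21.2% were higher and 19.9% lower by this much. At 2-fold, the counts stayed at 0, against 112 higher and 123 lower of the 11324 genes tested. After removal of the trend with GC content, length and level, 1 condensin I gene was below 0 and 1 cohesin gene above 0. Of the 11104 genes with this value, 5525 were below 0 and 5579 above. NCAPG turned to 0.0618, STAG1 to 0.0627 and the median of SMC5/6 to 0.0593. With GC content and length of the canonical transcripts, chosen after seeing the data, the same 2 genes turned, to 0.0304 and 0.0657. A minimum of 5 RPKM turned the median of the cohesin loading, release and acetylation list to 0.0524, with 5 of its 9 genes left. The cause of these turns was not tested, except that the last follows the loss of 4 genes.

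No gene passed an adjusted p of 0.05 with no minimum on RPKM, with a minimum of 5 RPKM, or by the deposited false discovery rate, and an unadjusted p under 0.05 was found for 5 of the genes of at least 1 RPKM and for 9 with no minimum. No paired analysis was possible because the table holds no values of single libraries. Leaving out each line in turn was not run for the same reason. Depth is unknown, and 2 libraries a group limit the precision.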
